A study of Homo sapiens with 4 samples.

Results

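The genes described here are 39 genes of DNA replication and of the passage from G1 into S phase. They were chosen by name, and each name matched 1 gene in a table of 20329 genes. All 39 passed the filter on low values (a mean of at least 1 FPKM over the libraries) that kept 13928 genes for testing. FPKM divides the fragments of a gene by its length and by the library's mapped fragments, so levels can be compared between genes. Messenger RNA came from BM1 and LM2 cells, derivatives of the triple-negative breast cancer line MDA-MB-231 that the labels tie to bone and lung metastasis. The groups were BM1 with a non-specific shRNA (BM1 control), BM1 with an shRNA against hnRNPM (BM1 knockdown), LM2 with the non-specific shRNA (LM2 control) and LM2 with the hnRNPM shRNA (LM2 knockdown). In all 4 groups the shRNA was delivered by lentivirus and stably expressed, and each group is 1 library. Whether these were clones or pools of cells is not said in the labels. The series asks how hnRNPM, an RNA-binding protein, acts on splicing in the epithelial-mesenchymal transition, while the table gives gene levels only.

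DNA replication starts at origins that are licensed in G1. The origin recognition complex, CDC6 and CDT1 load the ring of MCM2 to MCM7 onto DNA, and CDC45 and the GINS complex turn that ring into the active replicative helicase. Primase, the DNA polymerases, the sliding clamp PCNA and its RFC loader then copy the strands, with deoxynucleotides supplied in part by ribonucleotide reductase, thymidylate synthase and thymidine kinase. Most of these genes are known targets of E2F transcription factors, which RB proteins hold back until cyclin-CDK complexes phosphorylate RB late in G1. Their messenger RNA is therefore widely read as a marker of proliferating cells.

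The libraries held about 22808734 to 41545563 fragments, as read from the steps of low values. HNRNPM, the targeted gene, fell in BM1 from 171 FPKM to 28.4 and in LM2 from 132 FPKM to 20.3 (limma adjusted p = 0.00318 over both lines, 0.00124 to 0.613 over the alternatives). Mitochondrial genes took 9.31% and 8.80% of the FPKM sum in the BM1 and LM2 controls and 12.8% and 11.8% in the knockdowns, and their part in the results below was not tested. The 4 epithelial markers (KRT8, KRT18, KRT19 and EPCAM, 4 of 4 read) summed to 784 and 1551 FPKM in the BM1 control and knockdown and to 638 and 1429.9 FPKM in those of LM2. KRT8 had 398 and 1181 FPKM in BM1 and 485 and 1083 in LM2, KRT19 225 and 118, then 20.1 and 24.8, and EPCAM at most 4.59 FPKM. The mesenchymal VIM had 2354 and 1159.8 FPKM in the BM1 control and knockdown and 1575 and 1795 in those of LM2. The other mesenchymal markers listed did not follow it in both lines. CD44 had 155 and 157 FPKM in BM1 and 223 and 217 in LM2, and AXL 374 and 250, then 311 and 295. The part of the epithelial and mesenchymal markers in the results was not tested. SPARC, known from the lung derivative, had 248 and 651 FPKM in LM2 against 2.13 and 1.31 in BM1, and CXCR4, known from the bone derivative, had 24.7 and 10.8 FPKM in BM1 against 0.0698 and 0.127 in LM2. Of 29 markers listed for these lines and for other cell types, 18 could be read. The 2 fibroblast markers read of 4, COL1A1 and COL3A1, summed to 1.97 and 11.2 FPKM in the BM1 control and knockdown and to 29.3 and 74.7 FPKM in those of LM2, and their part in the results was not tested. The endothelial marker KDR ranged from 0.414 to 1.502 FPKM, and leukocyte markers were not analysed here.

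Promoters of the members are shown first, because these genes are known for shared control in the cell cycle. RefSeq windows of the GRCh38.p14 build, from 250 bases before to 50 bases after the gene start, matched 34 of the 39 members by symbol. RPA2, MCM4, MCM5, GINS4 and CCNE2 are named only. The E2F words TTTCCCGC, TTTGGCGC, TTTCGCGC and TTTGCCGC were searched on both strands and counted as 1 motif. A window with at least 1 of them was found for 19 of the 34 members (55.9%), against 3.33% of all 27305 windows and 5.53% of the 9127 windows of genes tested. CCAAT, the word bound by NF-Y, was in 19 member windows (55.9%) and in 35.7% of all windows (36.9% in genes tested). TTTGAA and TTCGAA, the words of the cell cycle genes homology region, were in 2 member windows (5.88%) and in 16.6% of all windows (11.0% in genes tested). In 20 windows of mitosis genes the homology words were in 16 and E2F words in 2.

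The following sequences belong to the 5 members with the lowest average change among those with an E2F word, and to ORC6, the member with the highest average change, whose window holds none. They run 5' to 3' on the gene's strand from 120 bases before the start to 10 bases after it (GRCh38.p14), and capitals mark the E2F word, read on either strand.
TYMS (chr18:657533-657662, plus strand): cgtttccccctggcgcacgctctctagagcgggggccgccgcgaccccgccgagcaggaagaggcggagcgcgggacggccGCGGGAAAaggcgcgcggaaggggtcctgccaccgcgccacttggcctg
POLE2 (chr14:49688205-49688334, minus strand): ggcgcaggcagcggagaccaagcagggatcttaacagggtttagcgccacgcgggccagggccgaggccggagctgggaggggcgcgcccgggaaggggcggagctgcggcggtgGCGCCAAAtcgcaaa
LIG1 (chr19:48170335-48170464, minus strand): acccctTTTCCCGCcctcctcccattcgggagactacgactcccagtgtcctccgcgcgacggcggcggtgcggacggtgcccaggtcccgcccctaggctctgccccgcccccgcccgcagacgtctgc
GINS2 (chr16:85688945-85689074, minus strand): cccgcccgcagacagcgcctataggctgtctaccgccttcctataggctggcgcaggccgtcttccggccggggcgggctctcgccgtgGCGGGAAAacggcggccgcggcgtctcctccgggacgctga
CDT1 (chr16:88803669-88803798, plus strand): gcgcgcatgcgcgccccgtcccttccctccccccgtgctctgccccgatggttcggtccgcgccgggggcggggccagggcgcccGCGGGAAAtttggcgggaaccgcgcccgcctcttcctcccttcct
ORC6 (chr16:46689539-46689668, plus strand): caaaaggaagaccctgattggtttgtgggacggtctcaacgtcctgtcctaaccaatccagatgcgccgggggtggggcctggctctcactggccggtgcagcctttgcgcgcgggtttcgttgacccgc
The word lay close to the start in 4 of the 5, beginning 5 bases before it in POLE2, 31 in GINS2, 35 in CDT1 and 39 in TYMS, and 114 bases before it in LIG1. Words overlap each other in MCM6 and MCM2, so windows rather than words were counted. Members with a word (n = 19) had median knockdown changes of -0.74 in BM1 and -0.73 in LM2 on the log2 scale, and members without one (n = 15) -0.62 and -0.53. The ranges of average change overlapped, from -1.13 to 0.21 with a word and from -1.18 to 0.48 without. TK1 (-1.18) and RRM2 (-1.02) were lower on average and hold no word, while RFC3 (0.21) and POLA1 (0.02) were higher and hold a word. A link between word and change was not tested. A match describes the letters in the window and is not a measured binding site.

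Levels of the replication genes were lower in the knockdown library of each line. Their FPKM summed to 2072 in the BM1 control and to 1256 in its knockdown, which left 60.6% of the control sum. The LM2 sums were 1845 and 1157, which left 62.7%, while the sums over all genes tested left 95.7% in BM1 and 100.5% in LM2. Gene by gene, both knockdown libraries lay below both control libraries in 26 of 39 members, as they did in 22.6% of all genes tested. ORC6 was the only member with both knockdowns above both controls (21.8% of all genes tested), and in the other 12 members the groups overlapped. Since RNA was measured in bulk, fewer cells in S phase and less RNA per cell cannot be told apart.

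**Figure D1:**
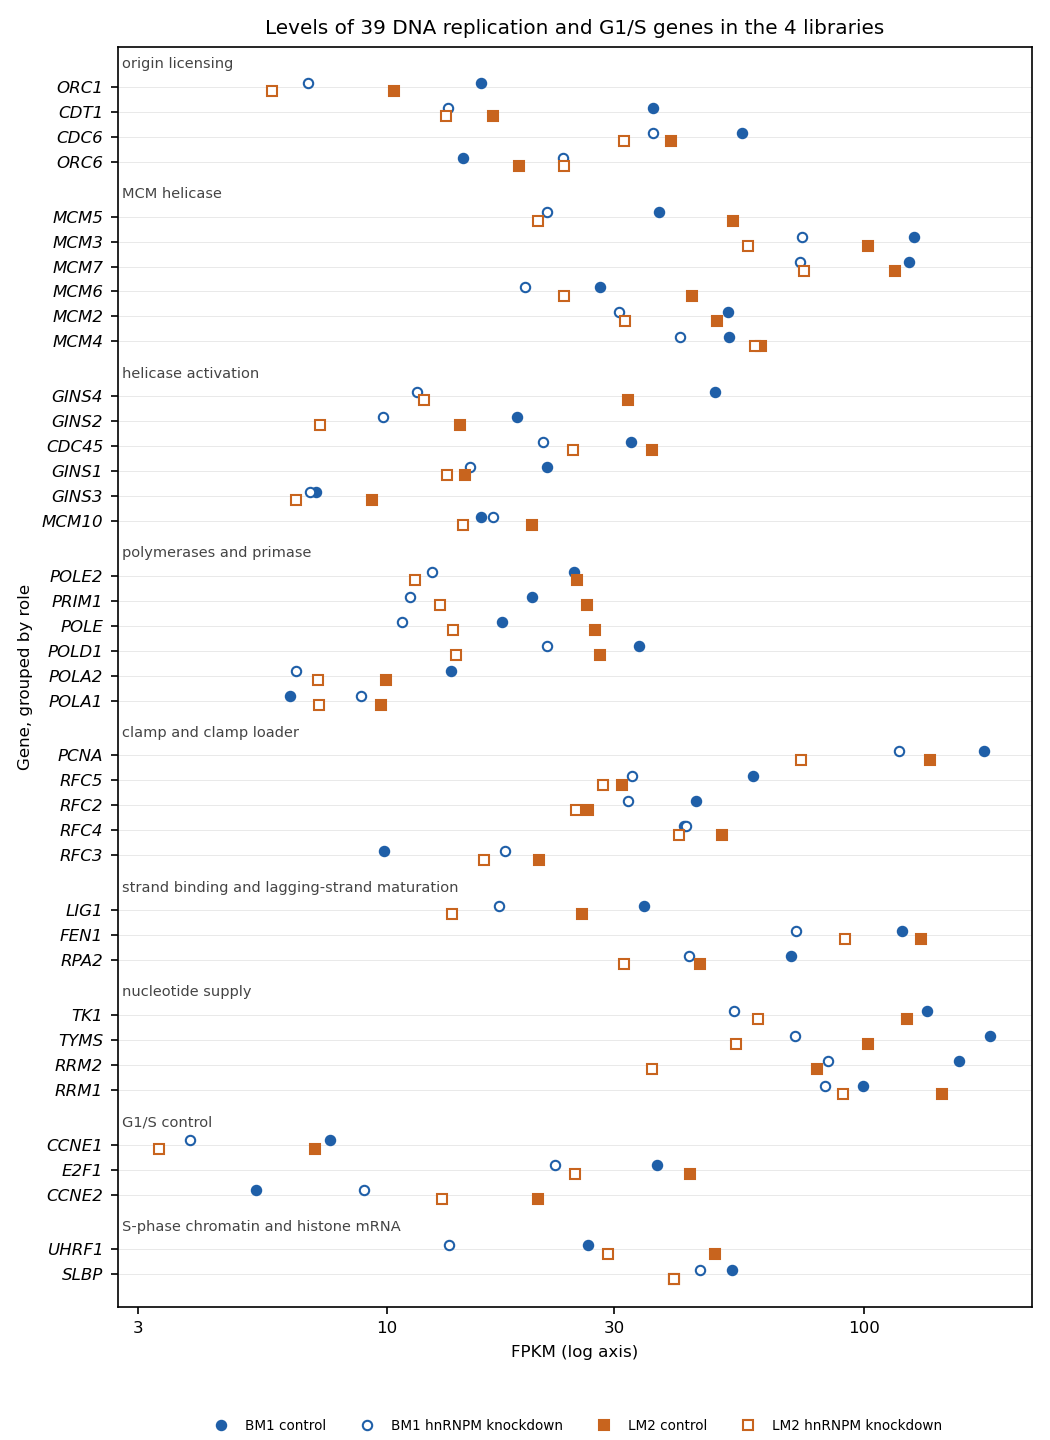
FPKM of the 39 genes on a log axis, grouped by role, with BM1 as circles, LM2 as squares, controls filled and knockdowns open (1 symbol per library). Open symbols lie left of filled ones in most genes, from 185 FPKM for TYMS in the BM1 control down to 3.33 FPKM for CCNE1 in the LM2 knockdown.

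Changes are given as differences of log2(FPKM + 1) from here on. In BM1 33 of 39 members were lower in the knockdown (49.7% of all genes) and in LM2 38 (53.5% of all genes), and these counts were 34 and 36 with size factors, 33 and 38 with quantile normalization, and 33 and 35 once the trend with GC content and length was taken out. The members had a median of -0.70 in BM1 and -0.63 in LM2, where all genes had 0.0047 and -0.04. In BM1 26 members were at least 1.5-fold lower (16.8% of all genes) and 3 at least 1.5-fold higher (21.0%). In LM2 22 were lower by this size (13.9%) and 0 higher (10.7%). In both lines 19 members were lower by it, against 7.25% of all genes.

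A 2-fold difference was rarer. In BM1 5 members were at least 2-fold lower (6.2% of all genes), namely GINS4, CDT1, TYMS, TK1 and ORC1. In LM2 there were 5 (4.24% of all genes), namely GINS4, MCM5, RRM2, POLE2 and TK1. GINS4 and TK1 are on both lists (1.95% of all genes). The number of members at least 2-fold higher was 0 in BM1 (10.1% of all genes) and 0 in LM2 (3.83%). Each of these differences compares 1 library with 1 and has no replicate check.

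**Figure D2:**
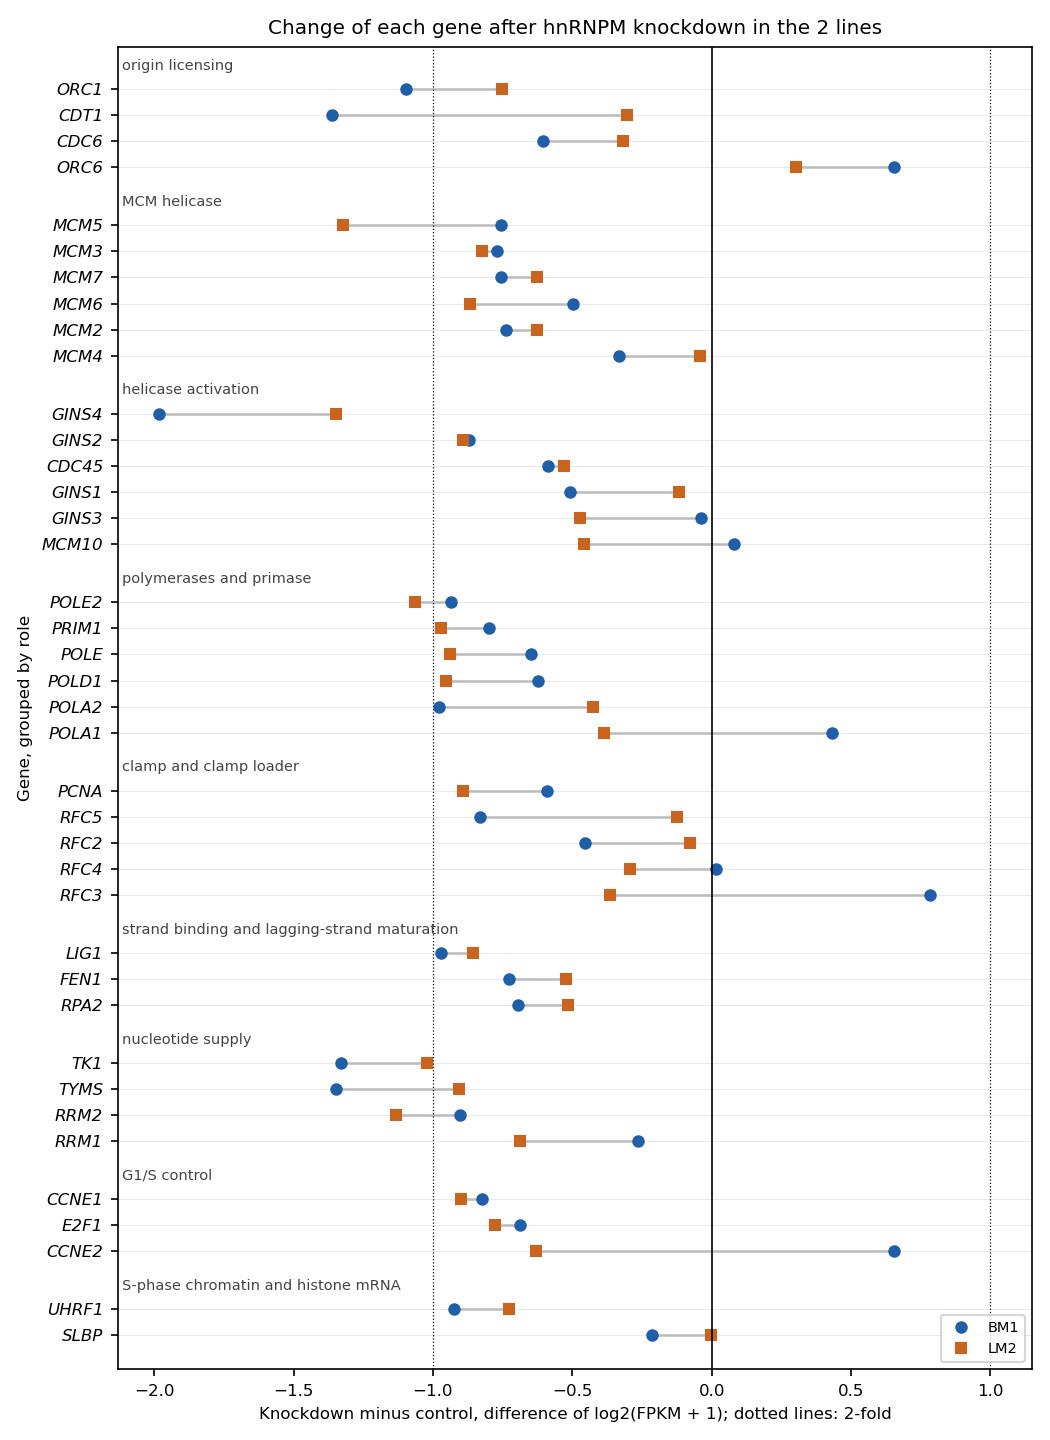
Knockdown minus control as a difference of log2(FPKM + 1) for each of the 39 genes, with BM1 as circles, LM2 as squares and dotted lines at 2-fold. GINS4 has the lowest values, -1.98 and -1.35, and CCNE2, RFC3, POLA1, MCM10 and RFC4 have points on both sides of 0.

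Tested over both lines, 3 of the 39 members passed an adjusted p of 0.05 in limma (5.47% of all genes), and these, GINS4, TK1 and TYMS, all fell (2.76% of all genes fell and 2.71% rose). At an unadjusted p under 0.05 there were 24 members (24.9% of all genes), 24 of them lower (12.5%). The fit has terms for line and treatment. The spread it has left per gene (1 degree of freedom) is how far the changes in BM1 and LM2 lie apart. In limma this is combined with a spread shared across all genes tested (7.70 prior degrees of freedom), which weighs more. Standard errors of members (the ± values) therefore ran only from 0.251 (GINS2) to 0.332 (CCNE2). They and the p-values rest mostly on the shared spread, and a member that behaves differently in the lines has a somewhat larger standard error. The number of members called by limma was 0 without the term for line (14 at an unadjusted p under 0.05) and 0 without any 1 of the 4 libraries, which also removes the pairing of libraries by line (3 to 8). It was 6 among the 9235 genes with a mean of at least 5 FPKM, where limma called 723 genes, against 762 of 13928 in the main fit.

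GINS4 encodes a subunit of the GINS complex, the helicase cofactor that travels with the fork. The gene (ENSG00000147536.11, chromosome 8, 41386725 to 41402565, plus strand, in the table's coordinates, for which the submitters' processing notes name GRCh37) had control levels of 48.7 (BM1) and 32.0 FPKM (LM2) and knockdown levels of 11.6 and 12.0 FPKM. Both knockdown libraries were far below both controls, with 23.8% of the control level left in BM1, the smallest share of all members there, and 37.4% in LM2. It fell by an average of 1.67 ± 0.27 on the log2 scale (limma adjusted p = 0.0166, 0.00974 to 0.656 over the alternatives). The call was lost with a pseudocount of 0.1 (adjusted p = 0.0863) and with quantile normalization (0.0756) and kept with size factors (0.0187). RP11-360L9.7 overlaps it on the opposite strand.

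The other GINS subunits had smaller differences. GINS2 had control levels of 18.7 (BM1) and 14.3 FPKM (LM2) and knockdown levels of 9.81 and 7.22 FPKM, and 52.3% and 50.6% of control were left. For GINS1, BM1 cells had 21.7 FPKM in the control and 14.96 in the knockdown, and LM2 cells 14.6 and 13.4. For GINS3, BM1 cells had 7.10 FPKM in the control and 6.88 in the knockdown, and LM2 cells 9.30 and 6.43. GINS4 was the highest of the 4 subunits in both controls, and GINS1 was the highest in both knockdowns. The ratio of the highest to the lowest subunit thus went from 6.86 to 2.17 in BM1 and from 3.44 to 2.08 in LM2.

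Among the other activators of the helicase, CDC45, which joins MCM and GINS at the fork, had control levels of 32.5 (BM1) and 36.0 FPKM (LM2) and knockdown levels of 21.3 and 24.6 FPKM. For MCM10, which the helicase needs to start, BM1 cells had 15.7 FPKM in the control and 16.7 in the knockdown, and LM2 cells 20.2 and 14.4. In CDC45 both knockdowns lay below both controls, and in MCM10 the groups overlapped.

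Nucleotide supply held the other members that passed the test. TK1 encodes the thymidine kinase of the salvage pathway (ENSG00000167900.11, chromosome 17, 76170156 to 76183314, minus strand) and fell in BM1 from 136 FPKM to 53.5 and in LM2 from 123 FPKM to 60.0. Its average change was -1.18 ± 0.26 (limma adjusted p = 0.0373, 0.0258 to 0.799 over the alternatives). TYMS encodes thymidylate synthase (ENSG00000176890.15, chromosome 18, 657604 to 673578, plus strand) and fell in BM1 from 185 FPKM to 71.9 and in LM2 from 102 FPKM to 54.1, an average change of -1.13 ± 0.26 (limma adjusted p = 0.0444, 0.0314 to 0.775 over the alternatives). In both genes each knockdown lay below each control, and TYMS was the highest of all members in the BM1 control. The average for TYMS was -0.71 without the BM1 control and -1.33, -1.55 and -0.93 without the BM1 knockdown, the LM2 control and the LM2 knockdown. With size factors the limma adjusted p was 0.0423 for TK1 and 0.0501 for TYMS. ENOSF1 and TYMSOS overlap TYMS on the opposite strand, and the sources used here do not say whether counting used strand. In all, 15 members overlap another listed gene, 14 of them on the opposite strand and 4 on the same strand (PRIM1, FEN1, MCM7 and RFC3), some on both. TK1 overlaps none.

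RRM2 and RRM1 encode the small and the large subunit of ribonucleotide reductase. For RRM2, BM1 cells had 159 FPKM in the control and 84.2 in the knockdown, and LM2 cells 80.02 and 35.9. Its LM2 control lay below its BM1 knockdown, so the groups overlapped although the knockdown was lower within each line (average change -1.02 ± 0.25, limma adjusted p = 0.0534). Leaving out 1 library moved this average to -0.53 (without the BM1 control), -1.62 (BM1 knockdown), -1.51 (LM2 control) or -0.42 (LM2 knockdown). For RRM1, BM1 cells had 99.7 FPKM in the control and 82.9 in the knockdown, and LM2 cells 146 and 90.3. The ratio of RRM2 to RRM1 was 1.59 and 1.02 in the BM1 control and knockdown and 0.547 and 0.397 in those of LM2. All 4 nucleotide genes were lower in both lines, as they were under each scaling, and their medians were -1.12 (BM1) and -0.97 (LM2). Of the roles, nucleotide supply kept the smallest share of its summed FPKM in BM1 (50.6%), and the polymerases and primase did in LM2 (52.6%, next to 53.2% for the nucleotide genes).

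The 6 subunits of the MCM ring were lower in both lines on the deposited scale, and with size factors or with the GC and length trend removed MCM4 in LM2 was the exception (0.01 and 0.01). Their levels summed to 422 FPKM in the BM1 control, 261 in its knockdown, 426 in the LM2 control and 267 in its knockdown, which left 61.9% and 62.8%. MCM5 had the lowest average change of the ring (-1.04 ± 0.27, limma adjusted p = 0.0595), going in BM1 from 37.2 FPKM to 21.6 and in LM2 from 53.3 FPKM to 20.7. MCM3 and MCM7 were the most abundant subunits. MCM3 had control levels of 128 (BM1) and 102 FPKM (LM2) and knockdown levels of 74.4 and 57.3 FPKM. MCM7 had control levels of 125 (BM1) and 116 FPKM (LM2) and knockdown levels of 73.4 and 74.9 FPKM. MCM2 had control levels of 51.9 (BM1) and 49.3 FPKM (LM2) and knockdown levels of 30.7 and 31.6 FPKM. In these 4 subunits each knockdown lay below each control, and 38.8% to 64.4% of control was left. MCM6 had control levels of 28.0 (BM1) and 43.7 FPKM (LM2) and knockdown levels of 19.5 and 23.5 FPKM. Its knockdowns also lay below its controls, and 69.7% (BM1) and 53.8% (LM2) of control was left. For MCM4, BM1 cells had 52.2 FPKM in the control and 41.2 in the knockdown, and LM2 cells 60.8 and 59.1, which left 97.2% of control in LM2 and put its LM2 knockdown above its BM1 control.

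Licensing factors went different ways. ORC1, the largest subunit of the origin recognition complex, had control levels of 15.7 (BM1) and 10.4 FPKM (LM2) and knockdown levels of 6.82 and 5.74 FPKM (average change -0.92, limma adjusted p = 0.0733). CDC6, which recruits the MCM ring with ORC, had control levels of 55.7 (BM1) and 39.5 FPKM (LM2) and knockdown levels of 36.2 and 31.5 FPKM. In ORC1 and CDC6 the knockdowns lay below the controls. For CDT1, the loading partner of CDC6, BM1 cells had 36.1 FPKM in the control and 13.4 in the knockdown, and LM2 cells 16.7 and 13.3. Its BM1 control stood alone above the other 3 libraries, and 37.2% of control was left in BM1 and 79.9% in LM2. The design gives no test of that contrast between lines. For ORC6 (ENSG00000091651.8, chromosome 16, 46723555 to 46732306, plus strand), the smallest ORC subunit, BM1 cells had 14.5 FPKM in the control and 23.3 in the knockdown, and LM2 cells 18.9 and 23.6. The knockdowns were the higher libraries here, and the average change of 0.48 ± 0.26 did not pass (limma adjusted p = 0.289).

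Polymerase and primase genes had medians of -0.72 in BM1 and -0.94 in LM2. POLE2, the accessory subunit of polymerase epsilon, had control levels of 24.7 (BM1) and 25.0 FPKM (LM2) and knockdown levels of 12.4 and 11.4 FPKM (average change -1.001 ± 0.25, limma adjusted p = 0.0556). The catalytic subunit POLE had control levels of 17.4 (BM1) and 27.3 FPKM (LM2) and knockdown levels of 10.8 and 13.8 FPKM. POLD1, the catalytic subunit of polymerase delta, had control levels of 33.9 (BM1) and 28.0 FPKM (LM2) and knockdown levels of 21.6 and 14.0 FPKM. In all 3 genes the knockdowns lay below the controls.

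Primase and polymerase alpha together start each new strand. PRIM1, the catalytic subunit of primase, had control levels of 20.2 (BM1) and 26.2 FPKM (LM2) and knockdown levels of 11.2 and 12.9 FPKM. POLA2, the accessory subunit of polymerase alpha, had control levels of 13.6 (BM1) and 9.97 FPKM (LM2) and knockdown levels of 6.43 and 7.17 FPKM. For POLA1, the catalytic subunit of the same enzyme, BM1 cells had 6.27 FPKM in the control and 8.82 in the knockdown, and LM2 cells 9.70 and 7.18. POLA2 and POLA1 thus differed in BM1, with changes of -0.98 and 0.43, and were close in LM2 at -0.42 and -0.39. Only POLA1 had overlapping groups.

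PCNA, the sliding clamp, had the highest mean level of all members, with control levels of 179 (BM1) and 138 FPKM (LM2) and knockdown levels of 119 and 73.7 FPKM. Its knockdowns lay below its controls. The RFC complex loads it, and each of the 4 subunits among the members had overlapping groups. For RFC5, BM1 cells had 58.7 FPKM in the control and 32.6 in the knockdown, and LM2 cells 31.1 and 28.4. For RFC2, BM1 cells had 44.4 FPKM in the control and 32.1 in the knockdown, and LM2 cells 26.4 and 24.9. In these 2 subunits the BM1 control was the highest library. For RFC4, BM1 cells had 42.0 FPKM in the control and 42.5 in the knockdown, and LM2 cells 50.5 and 41.0. For RFC3, BM1 cells had 9.86 FPKM in the control and 17.7 in the knockdown, and LM2 cells 20.9 and 16.0. RFC3 was lowest in the BM1 control, the opposite of RFC5, and these 4 together had 155 and 125 FPKM in BM1 and 129 and 110.4 in LM2. For RFC1, the large subunit and not a member, BM1 cells had 12.0 FPKM in the control and 25.0 in the knockdown, and LM2 cells 17.5 and 11.9.

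Joining of the lagging strand needs FEN1, which cuts flaps, and LIG1, which seals nicks. LIG1 had control levels of 34.6 (BM1) and 25.6 FPKM (LM2) and knockdown levels of 17.2 and 13.7 FPKM. FEN1 had control levels of 120.4 (BM1) and 132 FPKM (LM2) and knockdown levels of 72.3 and 91.6 FPKM. RPA2, a subunit of the single-strand binding protein RPA, had control levels of 70.4 (BM1) and 45.5 FPKM (LM2) and knockdown levels of 43.1 and 31.5 FPKM. In all 3 the knockdowns lay below the controls, and none passed the test (limma adjusted p = 0.0707 to 0.182).

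At the G1/S switch, CCNE1 and CCNE2 encode the cyclins that activate CDK2. CCNE1, the member with the lowest mean level, had control levels of 7.60 (BM1) and 7.07 FPKM (LM2) and knockdown levels of 3.87 and 3.33 FPKM. For CCNE2, BM1 cells had 5.32 FPKM in the control and 8.95 in the knockdown, and LM2 cells 20.8 and 13.0, changes of 0.65 and -0.63. The ratio of CCNE2 to CCNE1 was 0.6996 and 2.31 in the BM1 control and knockdown and 2.94 and 3.92 in those of LM2. On the deposited scale CCNE1 was therefore the more abundant cyclin E only in the BM1 control. With the GC and length trend removed, the BM1 change of CCNE2 was 0.07. INTS8, NDUFAF6 and RP11-347C18.5 overlap CCNE2 on the opposite strand. E2F1, a transcription factor of this switch, had control levels of 36.8 (BM1) and 43.2 FPKM (LM2) and knockdown levels of 22.5 and 24.8 FPKM, with both knockdowns below both controls. UHRF1, which guides the maintenance of DNA methylation behind the fork, had control levels of 26.4 (BM1) and 48.8 FPKM (LM2) and knockdown levels of 13.5 and 29.1 FPKM, with its LM2 knockdown above its BM1 control. SLBP binds the stem-loop of histone messenger RNA, and BM1 cells had 52.9 FPKM in the control and 45.4 in the knockdown, and LM2 cells 40.1 and 40.0, so that 85.9% and 99.8% of control were left.

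The changes of the 39 members in the 2 lines, which share no library, were correlated across genes with r = 0.555 (Pearson) and rho = 0.548 (Spearman). Over all 13928 genes tested the values were 0.553 and 0.547, and genes are not independent replicates. Signs were opposite in 5 members, CCNE2, RFC3, POLA1, MCM10 and RFC4, against 30.9% of all genes. In each of them the knockdown had the higher FPKM in BM1 and the lower in LM2. For a pair of them the BM1 sign depended on the scaling. MCM10 in BM1 was -0.19 with the GC and length trend removed, and RFC4 in BM1 was -0.02 with size factors, so each was then lower in both lines.

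**Figure D3:**
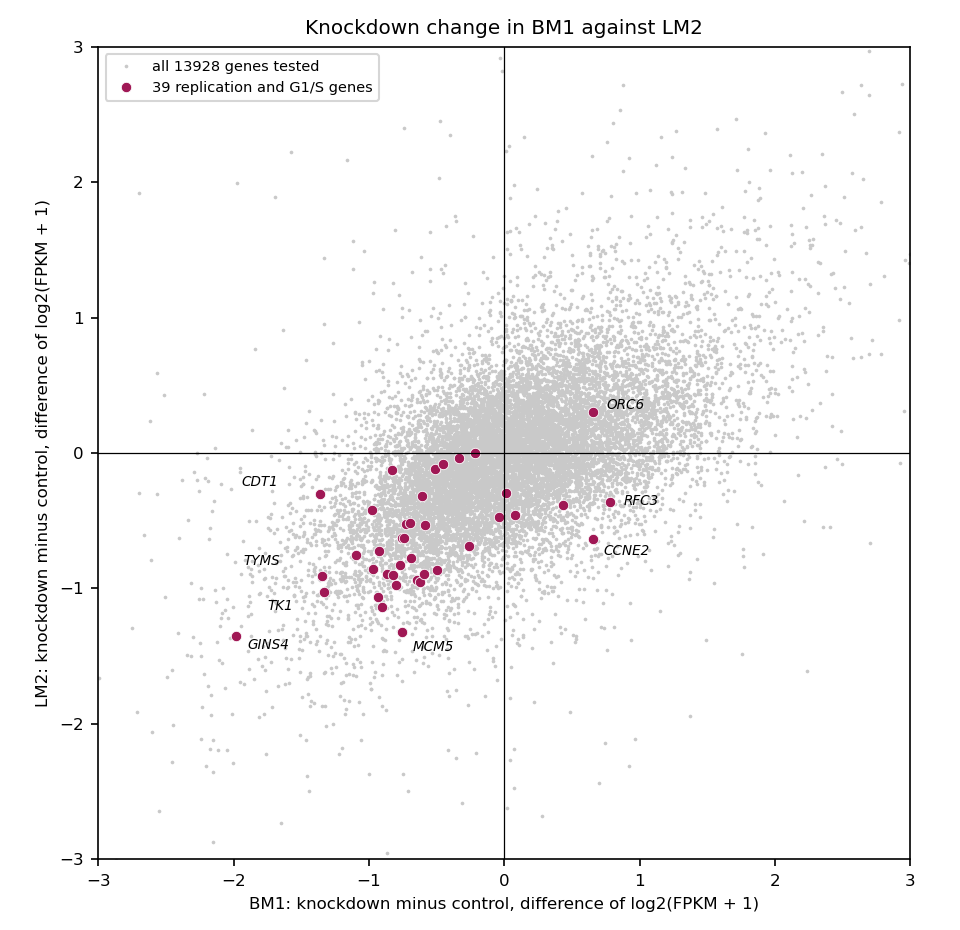
Change in BM1 (horizontal) against change in LM2 (vertical), both as differences of log2(FPKM + 1), for all 13928 genes tested (grey) and the 39 members (larger points). Most members lie at the lower left, around the medians of -0.70 and -0.63, and 51 genes lie outside the axes, which end at 3 on either side of 0.

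GC content moved with these changes. Across the members, the GC content of the GENCODE 29 transcript and the change had a Pearson r of -0.51 in BM1 and -0.19 in LM2. Over 13723 genes tested the values were -0.38 and -0.16. With the trend with GC content and length taken out, the members' median went from -0.70 to -0.53 in BM1 and from -0.63 to -0.62 in LM2. In BM1 CCNE2 went from 0.65 to 0.07, POLA1 from 0.43 to 0.10 and RFC3 from 0.78 to 0.32, so these moved towards 0, while ORC6 went from 0.65 to 0.79. GINS4 was then at -1.87 in BM1 and -1.31 in LM2 (limma adjusted p = 0.0326).

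**Figure D4:**
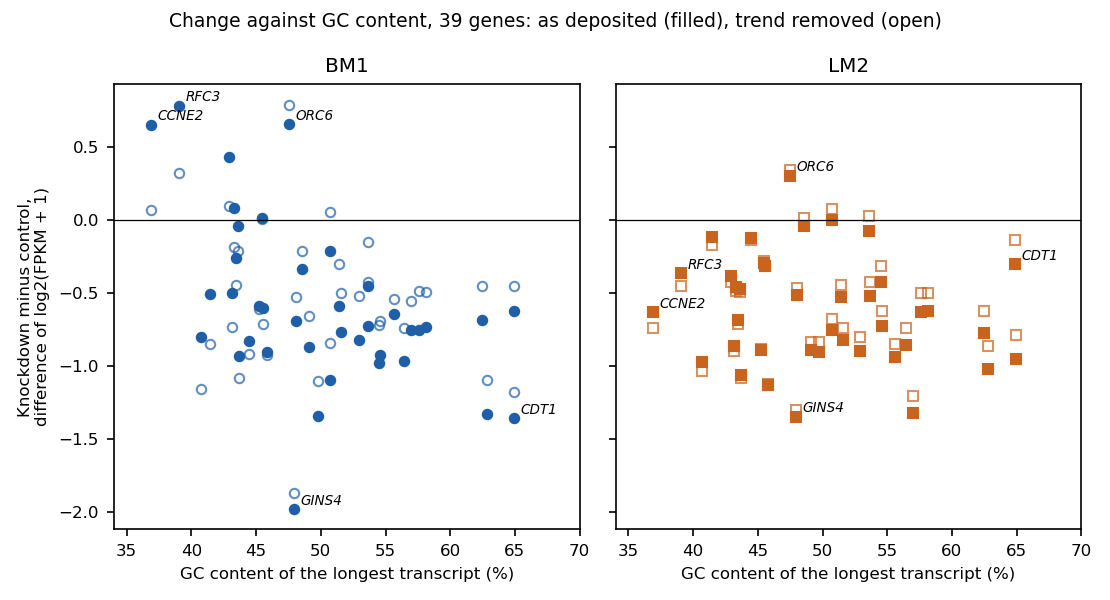
Knockdown minus control as a difference of log2(FPKM + 1) against GC content in percent for the 39 members in BM1 (circles) and LM2 (squares), with filled symbols as deposited and open symbols with the GC and length trend removed. In BM1 the deposited values slope downwards with GC content (r of -0.51), and in LM2 less so (r of -0.19).

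Other genes of the pathway came from a list of 77 names, of which 74 were tested. Their median changes were -0.13 in BM1 and -0.32 in LM2, with 41 and 55 of 74 lower (49.7% and 53.5% of all genes). In limma 5 passed as lower (2.76% of all genes), among them POLD4, CDK4, ASF1B and CDCA7. As higher 3 passed (2.71% of all genes), namely CDK6, RRM2B and CDKN1B. With no filter, with quantile normalization, without the term for line and with any 1 library left out, limma called 0 of all genes (860 to 3735 at an unadjusted p under 0.05), so none of the calls named here or among the mitosis genes held there. RRM2B, the p53-inducible counterpart of RRM2, rose in BM1 from 3.67 FPKM to 12.4 and in LM2 from 4.64 FPKM to 8.99 (limma adjusted p = 0.0466). Its direction was opposite to that of RRM2 in both lines. The histone chaperone ASF1B fell in BM1 from 76.1 FPKM to 26.2 and in LM2 from 64.2 FPKM to 31.1 (limma adjusted p = 0.0333). CDCA7, a partner of the chromatin remodeller HELLS, fell in BM1 from 5.02 FPKM to 1.87 and in LM2 from 21.3 FPKM to 6.64 (limma adjusted p = 0.0296). POLD4, the small subunit of polymerase delta, fell in BM1 from 19.8 FPKM to 4.69 and in LM2 from 8.77 FPKM to 4.62 (limma adjusted p = 0.0445). RAD9A overlaps POLD4 on the opposite strand.

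Regulators upstream of S phase were mixed. CDK4, a kinase of RB, fell in BM1 from 80.4 FPKM to 38.9 and in LM2 from 195 FPKM to 85.9 (limma adjusted p = 0.0426). CDK6, the other such kinase, rose in BM1 from 3.92 FPKM to 22.2 and in LM2 from 12.4 FPKM to 30.9 (limma adjusted p = 0.0196). CDKN1B, which encodes the CDK inhibitor p27, rose in BM1 from 12.5 FPKM to 34.9 and in LM2 from 22.4 FPKM to 42.6 (limma adjusted p = 0.0430). For CDK6 and CDKN1B each knockdown lay above each control, while for CDK4 the LM2 knockdown lay above the BM1 control. All 3 genes overlap another listed gene.

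For CDKN1A, which encodes p21, BM1 cells had 15.8 FPKM in the control and 39.7 in the knockdown, and LM2 cells 28.3 and 18.6, with opposite directions in the lines. CDKN2D (an INK4 inhibitor) had control levels of 47.5 (BM1) and 27.7 FPKM (LM2) and knockdown levels of 22.0 and 18.8 FPKM, and CDKN2C, of the same family, had control levels of 36.5 (BM1) and 36.9 FPKM (LM2) and knockdown levels of 25.5 and 24.3 FPKM. CDKN1C was low, with control levels of 3.45 (BM1) and 1.68 FPKM (LM2) and knockdown levels of 2.32 and 2.98 FPKM. These inhibitors had average changes of -0.81, -0.55 and 0.07 and did not pass, and CDKN2A and CDKN2B were not analysed here. Of the 12 E2F and RB family genes beyond E2F1, 0 passed in limma (5.47% of all genes), which for so few genes does not set them apart from all genes. Their median changes were -0.08 in BM1 and 0.02 in LM2, where all genes had 0.0047 and -0.04. E2F2, an activator of the family, had control levels of 4.27 (BM1) and 3.04 FPKM (LM2) and knockdown levels of 1.66 and 1.18 FPKM (average change -0.94). E2F8, a repressor, had control levels of 8.66 (BM1) and 11.7 FPKM (LM2) and knockdown levels of 5.41 and 4.56 FPKM (-0.89). RB1, the restraint on E2F, was the highest in average change (0.83), with control levels of 7.85 (BM1) and 12.8 FPKM (LM2) and knockdown levels of 20.9 and 16.6 FPKM. The other 9 lay between -0.44 and 0.68.

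The mitosis genes, a list of 25, had median changes of 0.02 in BM1 and -0.28 in LM2, with 12 and 22 lower (49.7% and 53.5% of all genes). Their summed FPKM left 82.6% of the control sum in BM1 and 80.6% in LM2, against 95.7% and 100.5% over all genes tested. CENPE, a kinetochore motor, rose in BM1 from 3.56 FPKM to 15.4 and in LM2 from 8.96 FPKM to 17.9 (limma adjusted p = 0.0350), and it was the only mitosis gene that passed. For MKI67, which encodes the proliferation marker Ki-67, BM1 cells had 15.2 FPKM in the control and 15.4 in the knockdown, and LM2 cells 17.2 and 15.9. No test compared the replication and the mitosis lists. The median GC content was 49.1% in the replication genes and 43.2% in the mitosis genes, whose medians were -0.19 and -0.29 with the GC and length trend removed.

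**Figure D5:**
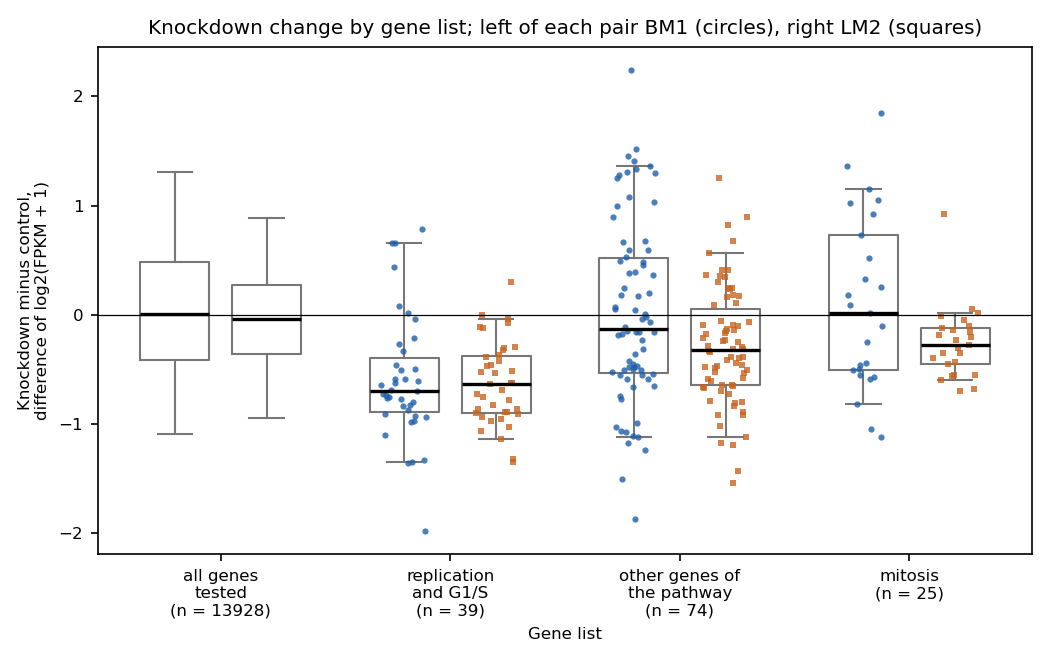
Knockdown minus control as a difference of log2(FPKM + 1) in BM1 and LM2 for all genes tested, the 39 members, the 74 other pathway genes and the 25 mitosis genes, with BM1 left and LM2 right in each pair and points for single genes. Boxes give quartiles with the median as a line, whiskers reach the 5th and 95th percentiles, and the member medians of -0.70 and -0.63 lie below those of the other lists.

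Between the lines the replication genes had similar levels as a group. LM2 minus BM1 had a member median of -0.09 between controls and -0.08 between knockdowns, where all genes had 0.03 and -0.06. Between controls 18 of 39 members were higher in LM2 (52.2% of all genes), and between knockdowns 16 (45.3% of all genes). At least 2-fold higher in LM2 were CCNE2 and RFC3 between controls (6.98% of all genes) and UHRF1 between knockdowns (4.41%). At least 2-fold lower were CDT1 between controls (5.26% of all genes) and RRM2 between knockdowns (4.63%). These comparisons use the same libraries as the knockdown comparisons, so a high or low control enters both.

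RRM2 alone passed in limma over both treatments (4.35% of all genes, 2.04% lower and 2.31% higher in LM2), with an average of -1.09 ± 0.25 and an adjusted p of 0.0496 (0.0385 to 0.9997 over the alternatives). It was lower in LM2 under both treatments. At an unadjusted p under 0.05 there were 4 members (22.4% of all genes). With size factors the limma adjusted p of RRM2 was 0.0543, so the call was lost. Leaving out a control moved its average to -0.64 (BM1) or -1.66 (LM2), and leaving out a knockdown to -1.55 (BM1) or -0.53 (LM2). CCNE2 in LM2 had 3.903 times the BM1 level between controls and 1.46 times between knockdowns. For RFC3 the ratios were 2.12 and 0.904, and for UHRF1 1.85 and 2.16. The UHRF1 ratio was thus no smaller between knockdowns, and the RFC3 ratio there was close to 1.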

How the data were processed

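The authors deposited 1 table of FPKM values with 1 column per library, per the labels. The submitters' processing notes name STAR 2.5.3a, Cuffdiff 2.2.1 and GRCh37 without saying what each was used for, and the sources used here give no annotation release. Of 20369 entries, 40 with repeated gene IDs were left out. Depth was read from low values of 1623 genes with a single annotated transcript, where 35.5% to 43.7% of the products of FPKM and length lay within 0.02 of a whole number of steps, taken as fragments. Most products were not whole, and a count test was therefore not used. Genes with a mean of at least 1 FPKM were fitted as log2(FPKM + 1), a scale that understates the change of low genes, in limma 3.58.1 (R 4.3.3), with terms for line and treatment and Benjamini-Hochberg adjustment over 13928 genes. Within a line, 2-fold served as a descriptive limit. Knockdown and control of a line are paired because they share the line (r of deviations 0.545 across genes). For a single value, permuting 2 libraries against 2 reaches a two-sided p of 0.333 at best in an exact test. No label says that a group was grown more than once, so p-values measure the spread between these libraries only.

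The members and lists were chosen with earlier results of these data known. All members are given with their values, and other pathway genes where they passed the test or belong to the CDK inhibitors or the E2F and RB family, except 1 that is not reported here. Alternatives were pseudocounts of 0.1 and 0.5, no filter, a filter at 5 FPKM, size factors, quantile normalization, removal of the GC and length trend, a 1.5-fold limit, no pairing, and leaving out each library. Leaving out members that overlap another gene was added after seeing the data. Promoters come from RefSeq (GRCh38.p14), and lengths and GC content from GENCODE 29 by gene ID.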

Additional observations from a re-analysis of the deposited data

Results flagged for a closer look

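In 5 members the knockdown change had opposite signs in BM1 and LM2, and no test of the difference was possible with 1 library per arm. All values are differences of log2(FPKM + 1). CCNE2 had 0.65 in BM1 and -0.63 in LM2. RFC3 had 0.78 in BM1 and -0.36 in LM2. POLA1 had 0.43 in BM1 and -0.39 in LM2. MCM10 had 0.0817 in BM1 and -0.46 in LM2. RFC4 had 0.0164 in BM1 and -0.29 in LM2. MCM10 was lower in both lines with the GC and length trend removed (-0.19 in BM1), and so was RFC4 with size factors (-0.02 in BM1). CCNE2, RFC3, POLA1 and RFC4 overlap other listed genes, and MCM10 does not.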

How the results depend on the processing

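Across the pseudocounts, filters and scalings, the member medians stayed negative in BM1 (-0.73 to -0.53) and LM2 (-0.67 to -0.59), with 5 to 7 members at least 2-fold lower in BM1 and 4 to 7 in LM2. With a 1.5-fold limit 26 members were lower in BM1 (16.8% of all genes) and 22 in LM2 (13.9%). Between controls 7 were lower in LM2 than in BM1 and 5 higher, 12 in all, where 2072 of 13928 genes were lower. Between knockdowns 3 were lower and 1 higher, 4 in all, where 2109 of 13928 genes were lower. For the higher ones no share of all genes is given. Without the 15 overlapping members, which leaves fewer genes, 3 and 3 were at least 2-fold lower and 1 was called by limma. The 3 knockdown calls became 0 with a pseudocount of 0.1, 0 with no filter and 0 with quantile normalization (20, 24 and 25 members at an unadjusted p under 0.05 in limma), 1 with a pseudocount of 0.5, 1 with the GC and length trend removed and 6 with the filter at 5 FPKM. Without the replicate block, the term for line that pairs the libraries, there were 0 (14 unadjusted), and leaving out each library gave 0 to 0. The call of RRM2 between lines was lost, with 0 members called by limma, under every setting except the filter at 5 FPKM, also without the block for treatment and with each library left out (1 to 5 members at an unadjusted p under 0.05). The median between controls was 0.00875 with quantile normalization and 0.0678 with the trend removed. Between knockdowns it was -0.0303 with size factors, -0.0313 with quantile normalization and -0.0250 with the trend removed. Over all genes the 762 knockdown calls became 27 with a pseudocount of 0.1, 613 with one of 0.5 and 427 with the trend removed. With the filter at 5 FPKM they became 723 of the 9235 genes kept. They became 0 with no filter, quantile normalization, no replicate block and each library left out (limma, 860 to 3735 genes at an unadjusted p under 0.05). The cause of these shifts was not tested. Depth limits the members little, since the smallest number behind a member value was about 180.2 fragments (counting error 7.45%).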
